A study of Mus musculus with 15 samples.

Results

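The 10 genes Heyl, Adamtsl2, Tmem178b, Crispld1, Dio2, Pde4b, Lrch1, Crebrf, Adcy7 and D630003M21Rik are a listed set, chosen by their measured CPM: each was picked as higher in irradiated submandibular glands given Shh than in irradiated glands given GFP or Gli1, with no threshold. They are 10 of the 39179 genes in the deposited tables, and all 10 were among the 14300 genes with enough reads to be tested. RNA was measured in whole submandibular glands, a major salivary gland, of adult male C57BL/6 mice, in 15 libraries of 5 groups with 3 libraries each. The group IR+Shh had local irradiation and transfer of Shh into the gland. IR+Gli1 had local irradiation and transfer of Gli1, and IR+GFP had local irradiation and transfer of GFP (green fluorescent protein). IR had local irradiation alone, and NT glands were from untreated mice. All irradiated glands were taken 7 days after irradiation. The vector, the species of the transferred gene, the time of transfer and the radiation dose are not given in the sources used here. The groups carry no allele that the labels name.

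Shh is a secreted ligand of the Hedgehog pathway. It binds the receptor Ptch1, which frees Smo to activate the Gli transcription factors, and Gli1 itself is both a factor and a standard target of the pathway. In salivary glands the pathway is known from the branching of the embryonic gland and from regeneration after injury. Among the 10 genes, Heyl is a target of Notch signaling, Adamtsl2 and Crispld1 encode secreted proteins, Dio2 activates thyroid hormone, and Adcy7 and Pde4b make and break down the messenger cAMP.

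Every group held 2 libraries that differed by less than the sampling noise, with a mean chi-square per gene of 0.215 to 0.337, against 22.0 to 223 in the other 10 pairs within groups. They were counted as 1 sample, by the rounded mean of their counts. The pairs were libraries 1 and 3 of IR+Shh, 1 and 2 of IR+Gli1, IR+GFP and IR, and 2 and 3 of NT, which left n = 2 samples per group and 10 in all. No label says that libraries came from separate animals, and p-values then speak only of the spread among these samples, which may be technical. Libraries held 18205941 to 41064723 reads in genes. The Shh gene was at 0 reads in every library, which allows up to 0.0731 to 0.165 CPM, and Gli1 was no higher in IR+Gli1 (0.540 and 0.672 CPM) than in IR+GFP (0.768 and 0.554 CPM), so neither value checks the labels. Gli1 was highest in the group labelled IR+Shh (2.69 and 4.24 CPM) and not in the group labelled as given Gli1. IR+Shh and IR+Gli1 name the groups as labelled throughout. The summed level of 10 acinar cell markers was 369350 and 305641 CPM in IR+Shh, and 80561 and 174054 CPM in IR+Gli1. In the other 6 samples it was 197607 to 354156 CPM. Mucl2 made up most of the sum, with 345537 and 285584 CPM in IR+Shh and 71875 and 136977 CPM in IR+Gli1. The other acinar markers did not all follow it. Bhlha15 had 268 and 295 CPM in IR+Shh, against 100 and 173 CPM in IR+Gli1. Lpo had 829 and 629 CPM in IR+Shh, against 659 and 934 CPM in IR+Gli1. One NT sample, the merged pair, held 34511 CPM of 7 sublingual gland genes, against 4.16 to 191 CPM elsewhere.

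Levels are CPM, read counts relative to library size, after scaling by TMM, a method that sets the bulk of genes level between samples. In each sentence of values the merged pair comes first and the single library after it, and the spread is the SD of n = 2 samples. The comparisons of IR+Shh with other groups chose the genes, or use the samples that chose them, so the values of the 10 genes in them are a description without a test. Because the glands were measured whole, fewer cells of a type and less RNA per cell cannot be told apart.

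With TMM scaling 9 of the 10 genes had their highest group mean in IR+Shh, the group they were picked for. The share of all genes with their highest mean there was not counted. For Pde4b, Lrch1, Crebrf and Adcy7 this depended on the scaling, as given below. Tmem178b was highest in IR. Both IR+Shh samples stood above all other 8 samples for 7 of the 10 genes, and this was so for 2.41% of all genes tested. The 7 were Heyl, Adamtsl2, Dio2, Pde4b, Lrch1, Crebrf and D630003M21Rik, while Tmem178b, Crispld1 and Adcy7 overlapped at least 1 other group. The IR+Shh samples were both above both IR+Gli1 samples for 9 of the 10 genes (28.8% of all genes), above IR+GFP for 9 (21.7%), above IR for 9 (23.1%) and above NT for 8 (26.5%). These counts follow in part from how the genes were chosen and are given without a reading.

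**Figure D1:**
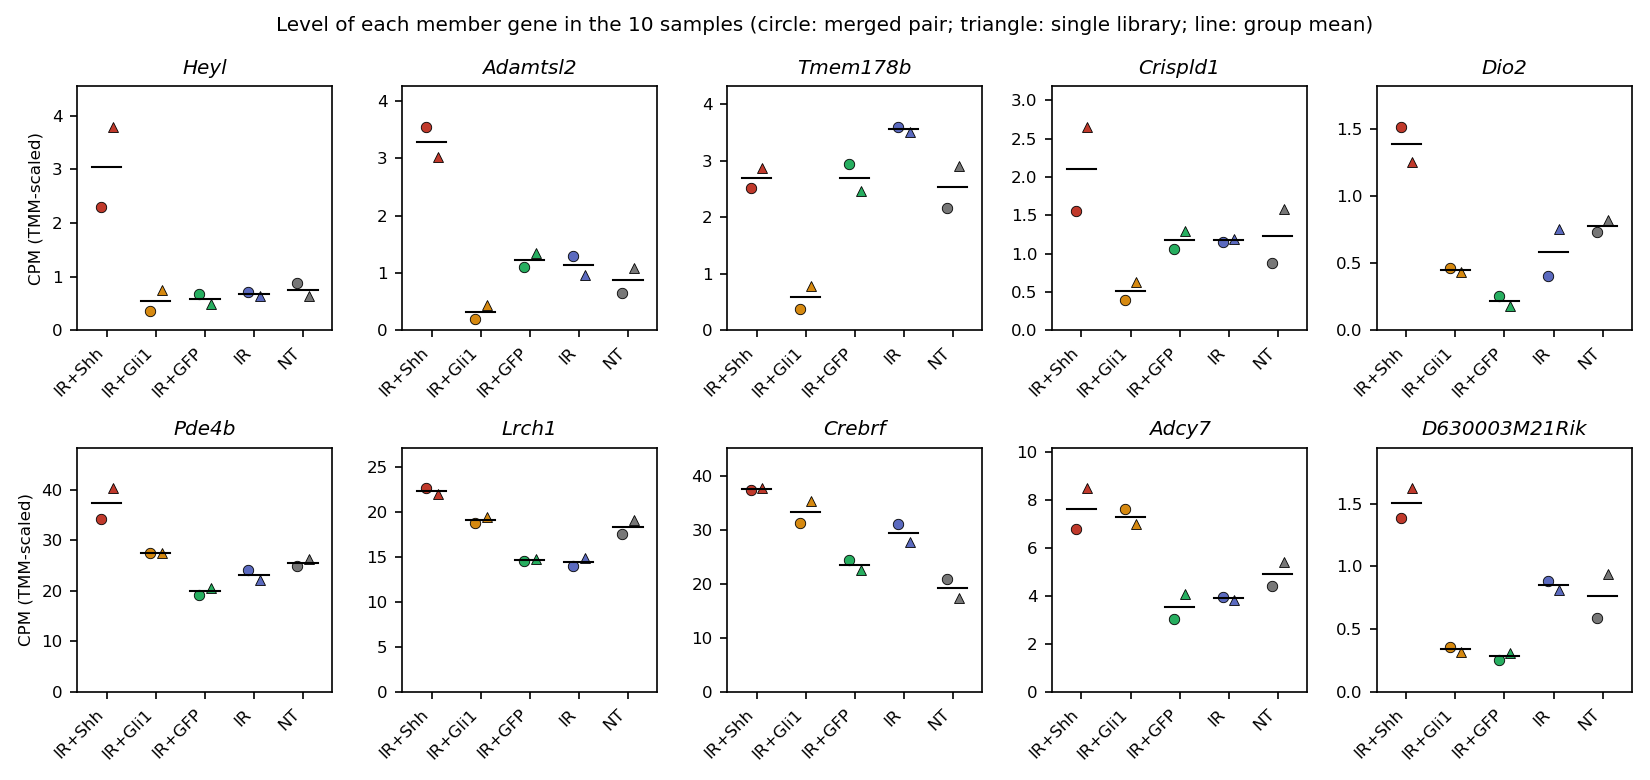
Level of the 10 genes (vertical axes, TMM-scaled CPM from 0) in each of 10 samples, by group from IR+Shh on the left to NT on the right, where circles are merged pairs, triangles single libraries and lines group means of n = 2. Heyl stands alone in IR+Shh at 2.30 and 3.80 CPM, Adcy7 overlaps between IR+Shh and IR+Gli1, and Tmem178b is low in IR+Gli1 and at 2.17 CPM or more elsewhere.

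Per kilobase of exon, the 10 genes spanned a wide range of levels. The mean over all samples was lowest for Dio2 at 0.117 CPM per kb and highest for Crebrf at 3.33 CPM per kb. Crebrf, Pde4b (2.53 CPM per kb) and Lrch1 (2.30 CPM per kb) had 240 to 1733 reads in every sample. Dio2, D630003M21Rik, Adamtsl2, Heyl, Tmem178b and Crispld1 lay at 0.117 to 0.275 CPM per kb, and counting error weighs on their values: Dio2 rested on 3 to 35 reads per sample and D630003M21Rik on 5 to 44 reads.

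Heyl (ENSMUSG00000032744, GRCm38 chr4:123233556-123249875, plus strand) encodes a transcriptional repressor of the Hes and Hey family that Notch signaling induces, known from smooth muscle of vessels. It had 2.30 and 3.80 CPM in IR+Shh, 0.360 and 0.751 in IR+Gli1, 0.682 and 0.492 in IR+GFP, 0.714 and 0.649 in IR, and 0.881 and 0.637 in NT. Both IR+Shh samples were above the rest by a wide margin, and the other 4 groups overlapped their neighbours in the order of means. The group mean of 3.05 ± 1.06 CPM was 5.49 times that of IR+Gli1, 5.19 times that of IR+GFP, 4.47 times that of IR and 4.02 times that of NT. Heyl had 53 to 103 reads in IR+Shh and 8 to 24 reads elsewhere.

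Adamtsl2 (ENSMUSG00000036040, GRCm38 chr2:27079379-27108981, plus strand) encodes a secreted glycoprotein of the ADAMTS-like family, which lacks protease activity and binds fibrillin microfibrils. It had 3.55 and 3.02 CPM in IR+Shh, 0.198 and 0.435 in IR+Gli1, 1.11 and 1.35 in IR+GFP, 1.29 and 0.974 in IR, and 0.661 and 1.09 in NT. It was high in IR+Shh, low in IR+Gli1 and in between in the 3 other groups, which overlapped each other in the order of means. The mean ratio of IR+Shh was 10.4 over IR+Gli1, the highest of the 10 genes in that comparison. It rests on 82 and 82 reads in IR+Shh, against 11 and 11 reads in IR+Gli1. The ratio was 2.67 over IR+GFP, 2.90 over IR and 3.75 over NT.

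Crispld1 (ENSMUSG00000025776, GRCm38 chr1:17727045-17766344, plus strand) encodes a secreted protein with a cysteine-rich CAP domain and LCCL domains. It had 1.56 and 2.65 CPM in IR+Shh, 0.396 and 0.632 in IR+Gli1, 1.07 and 1.29 in IR+GFP, 1.16 and 1.19 in IR, and 0.881 and 1.58 in NT. The lower IR+Shh sample lay below the higher NT sample, so those groups overlapped, and IR+Gli1 was below all others. The mean ratio of IR+Shh was 4.10 over IR+Gli1, 1.79 over IR+GFP, 1.80 over IR and 1.71 over NT. An antisense gene, Gm16070, overlaps Crispld1. The strand setting of the counting is not given in the sources used here, so their reads cannot be told apart.

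Dio2 (ENSMUSG00000007682, GRCm38 chr12:90724552-90738438, minus strand) encodes type II deiodinase, a selenoprotein that converts thyroxine to the active hormone inside the cell. It had 1.52 and 1.25 CPM in IR+Shh, 0.468 and 0.435 in IR+Gli1, 0.256 and 0.185 in IR+GFP, 0.408 and 0.757 in IR, and 0.734 and 0.819 in NT. The IR+Shh samples were the highest and the IR+GFP samples the lowest. The ratio of 6.29 over IR+GFP rests on 35 and 34 reads in IR+Shh, against 6 and 3 reads in IR+GFP. The ratio was 3.07 over IR+Gli1, 2.38 over IR and 1.78 over NT. The non-coding gene Gm26512 overlaps Dio2.

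Adcy7 (ENSMUSG00000031659, GRCm38 chr8:88272403-88329962, plus strand) encodes an adenylyl cyclase, which makes cAMP and is known from cells of the immune system. It had 6.76 and 8.48 CPM in IR+Shh, 7.60 and 6.99 in IR+Gli1, 3.03 and 4.06 in IR+GFP, 3.94 and 3.84 in IR, and 4.40 and 5.40 in NT. IR+Shh and IR+Gli1 overlapped, and both were above the other 3 groups. The mean of IR+Shh was 1.04 times that of IR+Gli1 and 2.15 times that of IR+GFP.

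Pde4b (ENSMUSG00000028525, GRCm38 chr4:102087543-102607259, plus strand) encodes a phosphodiesterase that breaks down cAMP. It had 34.3 and 40.3 CPM in IR+Shh, 27.5 and 27.6 in IR+Gli1, 19.2 and 20.6 in IR+GFP, 24.1 and 22.2 in IR, and 24.9 and 26.3 in NT. No neighbouring groups in the order of means overlapped. The mean ratio of IR+Shh was 1.36 over IR+Gli1, 1.87 over IR+GFP, 1.61 over IR and 1.46 over NT.

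Crebrf (ENSMUSG00000048249, GRCm38 chr17:26715650-26776635, plus strand) encodes a factor that binds CREB3, a transcription factor of the CREB family, and lowers its amount. It had 37.4 and 37.7 CPM in IR+Shh, 31.2 and 35.2 in IR+Gli1, 24.4 and 22.6 in IR+GFP, 31.0 and 27.8 in IR, and 20.9 and 17.4 in NT. The 5 groups did not overlap with their neighbours. It was the only one of the 10 genes whose mean was lowest in NT, and the ratio of IR+Shh was 1.96 over NT and 1.60 over IR+GFP.

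Lrch1 (ENSMUSG00000068015, GRCm38 chr14:74754675-74947876, minus strand) encodes a protein with leucine-rich repeats and a calponin homology domain, a type of domain found in actin-binding proteins. It had 22.6 and 22.0 CPM in IR+Shh, 18.7 and 19.4 in IR+Gli1, 14.5 and 14.8 in IR+GFP, 14.0 and 14.8 in IR, and 17.5 and 19.1 in NT. IR+Shh was above the rest, IR+Gli1 overlapped NT, and IR+GFP overlapped IR at the low end. The mean of IR+Shh was 1.53 times that of IR+GFP and 1.22 times that of NT.

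Tmem178b (ENSMUSG00000057716, GRCm38 chr6:39873271-40255150, plus strand) encodes a membrane protein. It had 2.51 and 2.88 CPM in IR+Shh, 0.378 and 0.790 in IR+Gli1, 2.94 and 2.46 in IR+GFP, 3.60 and 3.52 in IR, and 2.17 and 2.91 in NT. IR+Shh overlapped both IR+GFP and NT, and its lowest values were in IR+Gli1, where it had 21 and 20 reads. Its mean in IR+Shh was 4.61 times that in IR+Gli1 and 0.757 times that in IR. The antisense gene Gm26807 and the intronic gene Gm26638 overlap it.

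D630003M21Rik (ENSMUSG00000037813, GRCm38 chr2:158182533-158229222, minus strand) is a protein-coding gene. It had 1.39 and 1.62 CPM in IR+Shh, 0.360 and 0.316 in IR+Gli1, 0.256 and 0.308 in IR+GFP, 0.883 and 0.811 in IR, and 0.587 and 0.940 in NT. IR+Shh was highest, IR and NT overlapped in the middle, and IR+Gli1 and IR+GFP were lowest. The ratio of IR+Shh was 4.45 over IR+Gli1, 5.34 over IR+GFP, 1.78 over IR and 1.97 over NT. The antisense gene 1700060C20Rik overlaps it.

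The scaling of IR+Gli1 decided the order for 4 genes. TMM factors were 1.72 and 1.31 in IR+Gli1 and 0.865 to 0.994 in the other 8 samples. With CPM taken from total counts alone, the median of all genes in IR+Shh against IR+Gli1 moved by -0.65 on the log2 scale, to -0.67. Under that scaling the mean ratio of IR+Shh over IR+Gli1 was 0.870 for Pde4b, 0.750 for Lrch1, 0.729 for Crebrf and 0.667 for Adcy7, so these genes were highest in IR+Gli1. Heyl, Adamtsl2, Crispld1, Dio2 and D630003M21Rik stayed highest in IR+Shh, with ratios of 3.71, 6.99, 2.73, 1.95 and 2.83 over IR+Gli1. Both IR+Shh samples were then above the other 8 samples for these 5 of the 10 genes, against 0.552% of all genes.

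**Figure D2:**
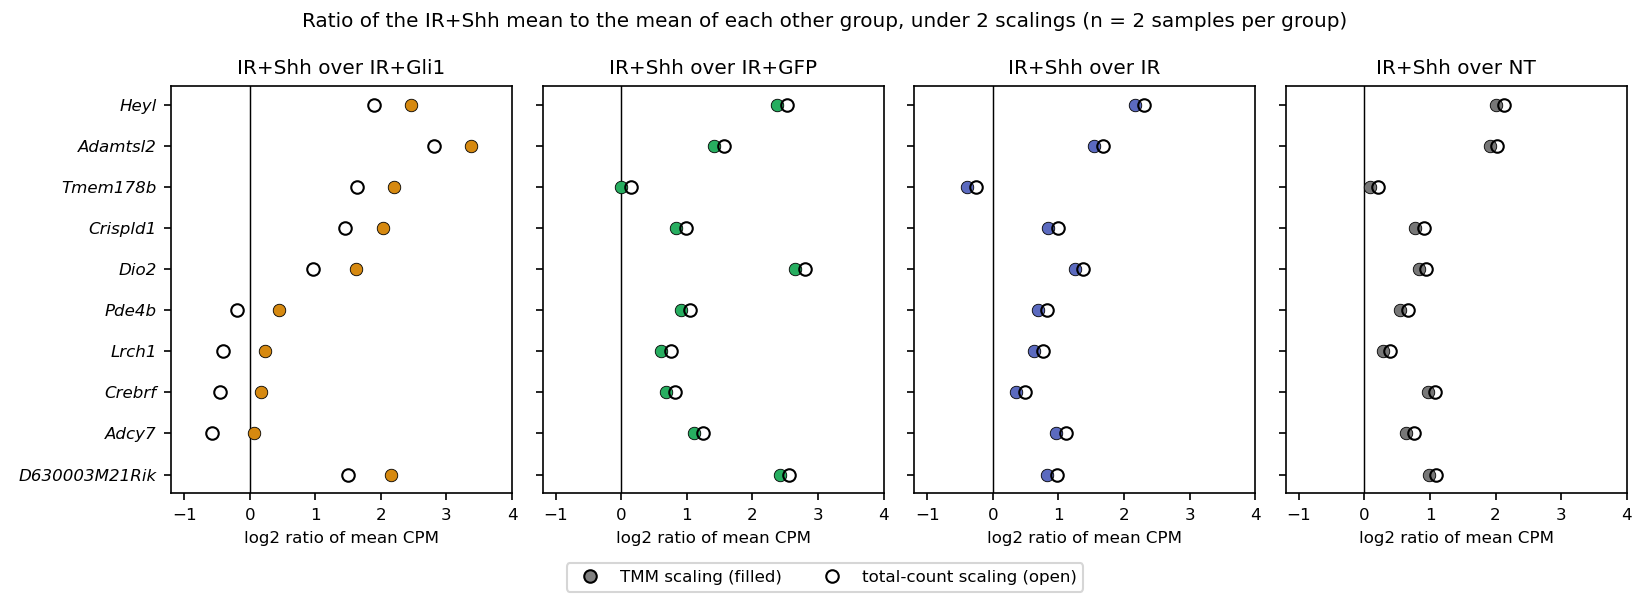
Ratio of the IR+Shh mean to the mean of each other group on a log2 axis, 1 panel per group and 1 row per gene (n = 2 samples per group), where filled points use TMM scaling and open points total-count scaling. Only against IR+Gli1 do points change side between scalings, apart from Tmem178b against IR+GFP (0.998 and 1.11): Pde4b, Lrch1, Crebrf and Adcy7 move below a ratio of 1.

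IR against NT is the comparison whose samples did not choose the genes, and 0 of the 10 passed the test in it (edgeR's quasi-likelihood test, Benjamini-Hochberg adjusted p under 0.05), against 0.678% of all genes (97 of 14300, 74 higher and 23 lower in IR). Unadjusted p was under 0.05 for 2 of the 10 genes and for 2504 of all genes, and DESeq2 called 1 of the 10. The median log2 fold change of the 10 genes was -0.11, beside -0.02 for all genes, and 4 lay above 0. Crebrf averaged 29.4 ± 2.28 CPM in IR and 19.2 ± 2.50 CPM in NT, a log2 fold change of 0.62 ± 0.12 (SE) with adjusted p = 0.0576 in edgeR. Over 19 alternative settings of 10 samples or fewer its adjusted p was 0.000689 to 0.435, and it passed in 5. These were the fit with no filter on low counts, DESeq2, the fits without either IR+Gli1 sample and the fit without the single libraries of IR+GFP and IR+Gli1. Lrch1 averaged 14.4 ± 0.556 CPM in IR and 18.3 ± 1.11 CPM in NT, with a log2 value of -0.35 ± 0.10 (SE) and edgeR adjusted p = 0.137. Log2 fold changes of the other 8 genes ran from -0.45 (Dio2, SE 0.40) to 0.48 (Tmem178b, SE 0.31), with edgeR adjusted p from 0.437 to 0.956. The count of all genes called rests on single samples: it was 9 without the single IR library, 16 without the merged IR pair, 21 without the merged NT pair and 538 without the single NT library. It was also 280 and 299 without the merged and the single IR+Gli1 sample, 63 without the merged IR+GFP pair, and 36 without either IR+Shh sample. The merged NT pair is the sample with the sublingual gland reads.

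**Figure D3:**
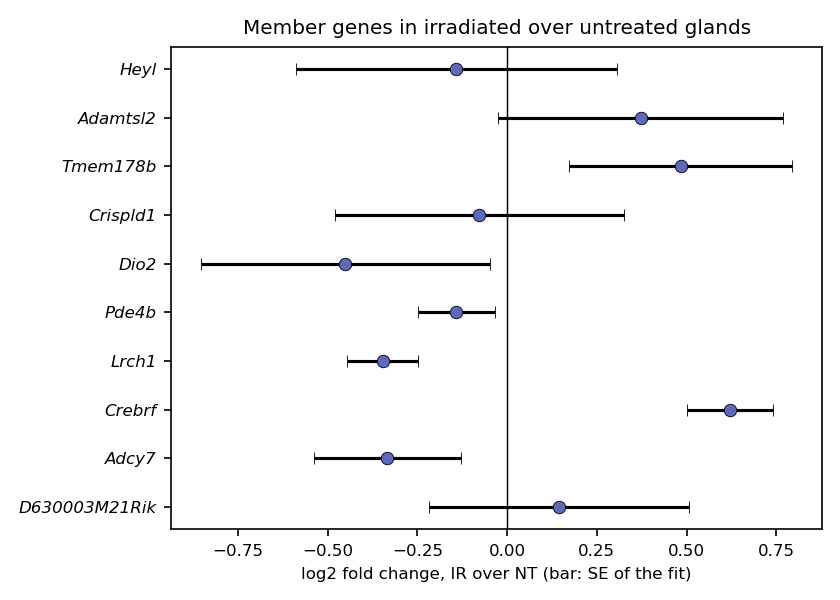
Log2 fold change of the 10 genes in IR over NT (horizontal axis), where points are edgeR estimates and bars their standard errors (n = 2 samples per group). Crebrf lies highest at 0.62 and Lrch1 below 0 at -0.35, and no gene passed the test at 0.05.

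Promoters are shown because 3 of the genes, Adcy7, Pde4b and Crebrf, act on cAMP or on a CREB family factor. RefSeq (GRCm38.p6) gave 14 windows for 8 of the 10 genes, each from 250 bases before to 50 bases after a transcript start. Heyl and Crispld1 are the genes without a window. The searched letters were TGACGTCA (the cAMP response element that CREB binds), TGACG (its short form, which every full element contains), TGGGAA (the core site of RBPJ, the DNA-binding factor of Notch) and TGGGTGGTC (the Gli site), on both strands. The windows below are those with the full or short cAMP element in Dio2, Adcy7, Pde4b and Crebrf, and the Adamtsl2 window with RBPJ letters. Capitals mark the cAMP element letters, or the RBPJ letters in Adamtsl2, and a match on the other strand reads as CGTCA.
Dio2, chr12:90738989-90739288, minus strand: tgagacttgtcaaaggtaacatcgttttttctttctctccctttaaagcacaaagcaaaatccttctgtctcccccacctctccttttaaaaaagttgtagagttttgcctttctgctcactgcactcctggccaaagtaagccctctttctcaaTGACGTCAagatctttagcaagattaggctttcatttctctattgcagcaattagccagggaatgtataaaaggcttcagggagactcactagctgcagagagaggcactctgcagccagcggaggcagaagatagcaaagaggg
Adcy7, chr8:88282742-88283041, plus strand: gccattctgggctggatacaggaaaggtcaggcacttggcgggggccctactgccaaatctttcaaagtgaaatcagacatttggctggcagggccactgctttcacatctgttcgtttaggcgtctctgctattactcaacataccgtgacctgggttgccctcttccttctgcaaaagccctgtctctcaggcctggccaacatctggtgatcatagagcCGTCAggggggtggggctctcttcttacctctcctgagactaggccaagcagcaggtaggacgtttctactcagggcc
Pde4b, chr4:102421305-102421604, plus strand: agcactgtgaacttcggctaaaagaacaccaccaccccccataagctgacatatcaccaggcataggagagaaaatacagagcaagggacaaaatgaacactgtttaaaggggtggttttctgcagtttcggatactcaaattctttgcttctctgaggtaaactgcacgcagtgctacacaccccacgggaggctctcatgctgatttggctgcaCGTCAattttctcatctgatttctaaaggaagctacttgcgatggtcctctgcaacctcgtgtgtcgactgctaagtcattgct
Crebrf, chr17:26715400-26715699, plus strand: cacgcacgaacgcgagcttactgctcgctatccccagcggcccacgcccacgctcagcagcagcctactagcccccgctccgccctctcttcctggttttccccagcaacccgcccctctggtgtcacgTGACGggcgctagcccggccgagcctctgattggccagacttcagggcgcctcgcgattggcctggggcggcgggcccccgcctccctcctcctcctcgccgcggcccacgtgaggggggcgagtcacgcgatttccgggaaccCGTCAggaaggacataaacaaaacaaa
Adamtsl2, chr2:27079129-27079428, plus strand: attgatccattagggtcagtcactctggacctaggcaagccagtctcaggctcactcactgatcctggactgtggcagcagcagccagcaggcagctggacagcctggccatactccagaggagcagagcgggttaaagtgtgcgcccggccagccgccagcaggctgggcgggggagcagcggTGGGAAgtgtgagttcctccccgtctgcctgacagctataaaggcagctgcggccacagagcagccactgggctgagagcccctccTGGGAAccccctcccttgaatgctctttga

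The full element TGACGTCA was found in Dio2 alone, 95 bases before the start, and in 1.79% of all 32851 windows of the table. The short form TGACG was in 5 of the 14 windows (5 genes: Dio2, Adcy7, Pde4b, Crebrf and Tmem178b) and in 20.8% of all windows. TGGGAA was in 4 of the 14 windows, of Adamtsl2, Adcy7 and Pde4b, and in 25.6% of all windows. TGGGTGGTC was in 0 of the 14 windows and in 0.253% of all. A match says only that the letters are present in the window.

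The Hedgehog pathway list held 21 genes, of which 16 were tested. Gli1 had 2.69 and 4.24 CPM in IR+Shh and 0.514 to 0.768 CPM in the other 8 samples. It rose in IR+Shh against IR+Gli1 by a log2 fold change of 2.53 ± 0.34 (edgeR adjusted p = 0.00879). With 1 IR+Shh sample left out the log2 value was 2.16 (merged pair alone, edgeR adjusted p = 0.109) and 2.82 (single library alone, edgeR adjusted p = 0.0507). Against IR+GFP its log2 value was 2.37 ± 0.35 (edgeR adjusted p = 0.330). The receptor gene Ptch1 had 11.4 and 12.6 CPM in IR+Shh and 7.30 to 12.9 CPM elsewhere. Gli1 did not overlap between IR+Shh and the other samples. For Ptch1 only the merged IR pair, at 12.9 CPM, lay above the IR+Shh samples. With TMM scaling both IR+Shh samples had more Ptch1 than both samples of IR+GFP (8.87 and 8.30 CPM). The same held against IR+Gli1 (7.64 and 10.2 CPM) and NT. Ccnd2, a cyclin, fell in IR+Shh against IR+Gli1 by 0.85 on the log2 scale (edgeR adjusted p = 0.0285). The count of calls in IR+Shh against IR+Gli1 needed both IR+Shh samples: 1109 of all genes (7.76%) were called in either direction, 0 without the single IR+Shh library and 4 without the merged pair. Without the merged or the single IR+Gli1 sample the count was 221 and 2286, and without the merged or the single IR sample it was 385 and 413. Under total-count scaling 84 genes were called higher and 8008 lower, a share of higher calls of 1.04% in place of 35.6%.

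None of the genes in any of the 9 pathway lists passed in IR+Shh against IR+GFP by edgeR's test, which called 0.0% of all genes. Over all genes 872 had an unadjusted p under 0.05 there, DESeq2 called 34 and limma-voom called 0. Unadjusted edgeR p was under 0.05, in either direction, for 7 of 16 tested Hedgehog genes and 3 of 13 glucocorticoid-induced genes. It was so for 2 of 30 genes of cAMP synthesis, breakdown and kinase and 2 of 16 cAMP-induced genes. Of the 16 Hedgehog genes 9 had a log2 value above 0 against IR+GFP. Their median was 0.06, beside 0.001 for all genes tested. The comparisons of IR+Shh against IR+GFP and against IR+Gli1 share the IR+Shh samples. DESeq2 called 3 of the list genes against IR+GFP, Gli1, Per1 and Pdk4, and limma-voom called 0. Among 18 tested Notch genes of 20, to which Heyl relates, 0 passed in IR+Shh against IR+Gli1 (7.76% of all genes) and 1 had a log2 value above 0. The median of those 18 genes was -0.37, beside -0.02 for all genes tested, and that of the same genes against IR+GFP was 0.11. Notch3, a receptor of smooth muscle, had a log2 value of -0.67 ± 0.23 in IR+Shh against IR+Gli1 without passing (edgeR adjusted p = 0.117). It had 12.8 and 14.2 CPM in IR+Shh, 26.0 and 16.7 CPM in IR+Gli1, and 14.7 and 14.2 CPM in IR+GFP. Of Notch genes in IR+Shh against IR+Gli1, 1 had an unadjusted p under 0.05 and DESeq2 and limma-voom called 0, while under total-count scaling 13 were called lower.

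The list of cAMP synthesis, breakdown and kinase genes had 30 of 31 genes tested, without Adcy7 and Pde4b. In IR+Shh against IR+Gli1, 4 rose by edgeR's test and 1 fell, with a median log2 value of 0.15, beside 2.76% higher (395) and 714 lower of the 14300 genes tested, 7.76% in either direction. Rapgef3, a cAMP-activated exchange factor, rose by 0.79 ± 0.15, Adcy9, another adenylyl cyclase, by 0.67 ± 0.16, and Prkar1b, a regulatory subunit of protein kinase A, by 0.49 ± 0.12 on the log2 scale. Gnai2, an inhibitory G protein subunit, fell by 0.65 on that scale. With total-count scaling, where the median of all genes was -0.67, Rapgef3 was at 0.16, Adcy9 at 0.05 and Prkar1b at -0.14 without passing, and 0 genes of the list were called higher and 12 of 30 lower, beside 84 higher and 8008 lower of all 14300. Of 16 tested genes that cAMP and CREB induce, 0 rose and 2 fell in IR+Shh against IR+Gli1 (7.76% of all genes changed). These, by edgeR's test, were the regulator of G protein signaling Rgs2, by 1.01, and the AP-1 subunit Junb, by 1.32 on the log2 scale. DESeq2 called 6 of the 16 (1546 of all genes) and limma-voom 3 (936 of all genes). For 9 of the 16, and 3781 of all genes, unadjusted edgeR p was under 0.05. Against IR+GFP the clock gene Per1 had the smallest p of that list, with a log2 value of 0.96 ± 0.21 that did not pass (edgeR adjusted p = 0.527). Of 12 tested CREB family factors 0 rose and 1, Atf3, fell by 1.90 on the log2 scale in IR+Shh against IR+Gli1, beside the same 7.76%.

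Among 20 tested genes of microfibrils and TGF-beta storage, the setting of Adamtsl2, 2 rose and 2 fell in IR+Shh against IR+Gli1 by edgeR's test, beside 7.76% of all genes in either direction. Ltbp4, a latent TGF-beta binding protein, rose by 0.79 ± 0.15 and the protease Adamts10 by 0.50 ± 0.13, while Ltbp1 fell by 1.58 and the relative Adamtsl4 by 1.42 on the log2 scale. With total-count scaling neither Ltbp4 (0.17) nor Adamts10 (-0.14) passed, and 0 genes of the list were called higher and 8 of 20 lower, beside 8008 of all 14300 lower. In IR against NT, Adamts10 and Ltbp2 rose by 0.96 ± 0.13 (edgeR adjusted p = 0.0174) and 1.03 ± 0.16 (edgeR adjusted p = 0.0268). Of 12 tested genes of thyroid hormone handling and response, beside Dio2, 0 rose and 1 fell in IR+Shh against IR+Gli1, the lysosomal protease Ctsb by 0.87 on the log2 scale. Of 13 tested genes that glucocorticoids induce, Pdk4 alone fell in IR+Shh against IR+Gli1, by 0.92 on the log2 scale, and in IR+Shh against IR+GFP its log2 value was 0.92 ± 0.18 without passing (edgeR adjusted p = 0.436). Of 12 tested close relatives of the 10 genes, only Adamtsl4 passed in IR+Shh against IR+Gli1. With each sample left out in turn, every list's count in IR+Shh against IR+Gli1 reached 0 in at least 1 fit.

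The 8 genes whose pattern over the 10 samples was most like the mean of the set were Filip1, Gfra2, Gli1, Igfbp4, Cdk5rap2, Hivep3, Arhgap18 and Cd302. Likeness is Pearson's r of log2 CPM with the mean of the standardized values of the set, over named genes of at least 2 CPM in their highest group, and the 10 points share libraries and scaling. It was 0.941 for Filip1, 0.933 for Gfra2, 0.925 for Gli1, 0.908 for Igfbp4 and 0.863 to 0.898 for the other 4. Igfbp4, a secreted binding protein of insulin-like growth factors, had 23.9 and 28.6 CPM in IR+Shh and 8.83 to 15.9 CPM elsewhere. Gfra2, the receptor of neurturin, averaged 2.63 CPM in IR+Shh and 0.521 to 1.10 CPM in the other groups. Within the set r ran from 0.319 for Tmem178b and 0.510 for Crebrf to 0.943 for Heyl. Each of these genes is part of the mean, which raises its r, so these values do not compare with those of the 8 genes.

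**Figure D4:**
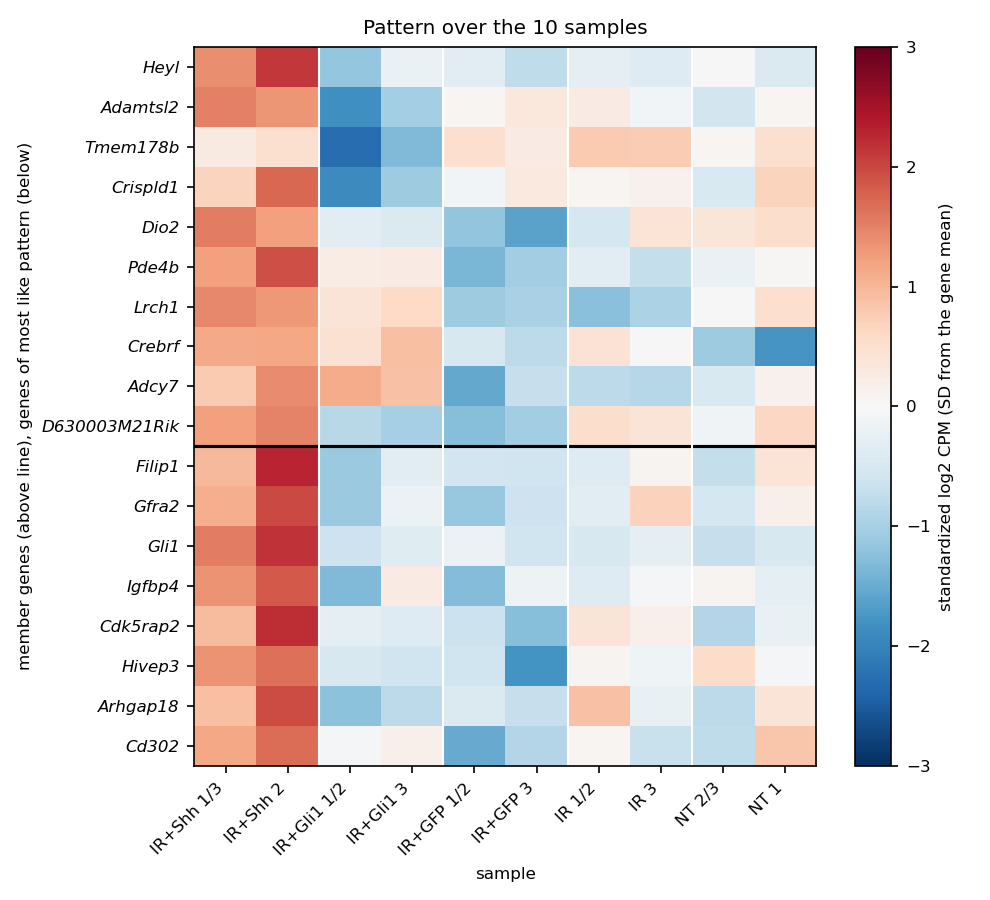
Standardized log2 CPM (color, in SD from each gene's mean) of the 10 genes above the line and the 8 genes of most like pattern below it, in the 10 samples from IR+Shh at the left to NT at the right. Both IR+Shh columns are the highest for most rows, and in the IR+Gli1 columns the set runs from Adcy7 at 1.11 and 0.87 SD to Tmem178b at -2.28 and -1.33 SD.

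Markers of some other cells also differed between groups. The summed level of 10 macrophage markers was 172 and 181 CPM in IR+Shh, 284 and 265 in IR+Gli1, 95.5 and 137 in IR+GFP, 119 and 119 in IR, and 142 and 169 in NT. The sum was highest in IR+Gli1 and next in IR+Shh, but its genes did not move together: in IR+Shh against IR+Gli1, 1 of the 10 rose and 4 fell by edgeR's test (7.76% of all genes changed). Fcgr1 had 2.86 and 2.29 CPM in IR+Shh, against 46.6 and 14.2 CPM in IR+Gli1. Mrc1 had 9.19 and 12.1 CPM in IR+Shh, against 4.67 and 5.89 CPM in IR+Gli1. These and the fibroblast genes named next were picked with their values in view. The summed level of 10 fibroblast markers was 211 and 288 CPM in IR+Shh, 153 and 205 in IR+Gli1, 168 and 230 in IR+GFP, 189 and 244 in IR, and 206 and 220 in NT, so the groups overlapped. In IR+Shh against IR+Gli1 their median log2 value was 0.62 and 1 of the 10 rose. Lum, a collagen-binding proteoglycan, had 14.3 and 23.4 CPM in IR+Shh, 3.19 and 6.12 CPM in IR+Gli1 and at most 16.7 CPM elsewhere. With TMM scaling Lum had its lowest values in IR+Gli1, as did Adamtsl2, Crispld1 and Tmem178b. Other fibroblast markers differed from Lum. Pdgfra had 4.64 and 6.45 CPM in IR+Shh, 2.72 and 6.79 CPM in IR+Gli1 and 7.29 to 10.3 CPM elsewhere. The 10 T and NK cell markers summed to 6.50 and 6.53 CPM in IR+Shh, 45.8 and 18.4 CPM in IR+Gli1 and 1.57 to 3.85 CPM elsewhere. Gzmb made up most of the IR+Gli1 sum, with 31.7 and 12.6 CPM, while Cd3e had 16 and 3 reads there. The 10 granular tubule markers summed to 77055 and 88225 CPM in IR+Shh, 22182 and 48388 CPM in IR+Gli1 and 112343 to 164368 CPM elsewhere. Not all of them followed the sum. Klk1 had 7852 and 4424 CPM in IR+Shh and 2344 to 5122 CPM elsewhere, and Ren1 had 24.9 and 83.4 CPM in IR+Gli1. These genes too were picked with their values in view. The part of these cell types in the levels of the 10 genes was not tested.

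The IR+Shh samples differed in fat cell genes. Adipoq, which encodes a hormone of fat cells, had 0 and 3.43 CPM in IR+Shh, 0 CPM in both IR+Gli1 samples, 0 and 0.800 CPM in IR+GFP, 3.98 and 0.216 CPM in IR, and 0.881 and 0.0303 CPM in NT. Of 10 fat cell markers, 6 were at 0 reads in the merged IR+Shh pair and 0 in the single library. Ucp1, which marks brown fat, was at 0 reads in 9 of the 10 samples. With the merged IR+Shh pair alone, where Adipoq was at 0, the ratio over IR+GFP was 3.91 for Heyl, 2.89 for Adamtsl2, 6.89 for Dio2 and 4.92 for D630003M21Rik, and that of Crispld1 was 1.32, against 1.79 over both samples. Of Adcy7 the ratio over IR+Gli1 was 0.927 in the merged pair alone. These ratios rest on 1 IR+Shh sample and on comparisons that chose the genes. The part of fat cells in the levels of the 10 genes was not tested.

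**Figure D5:**
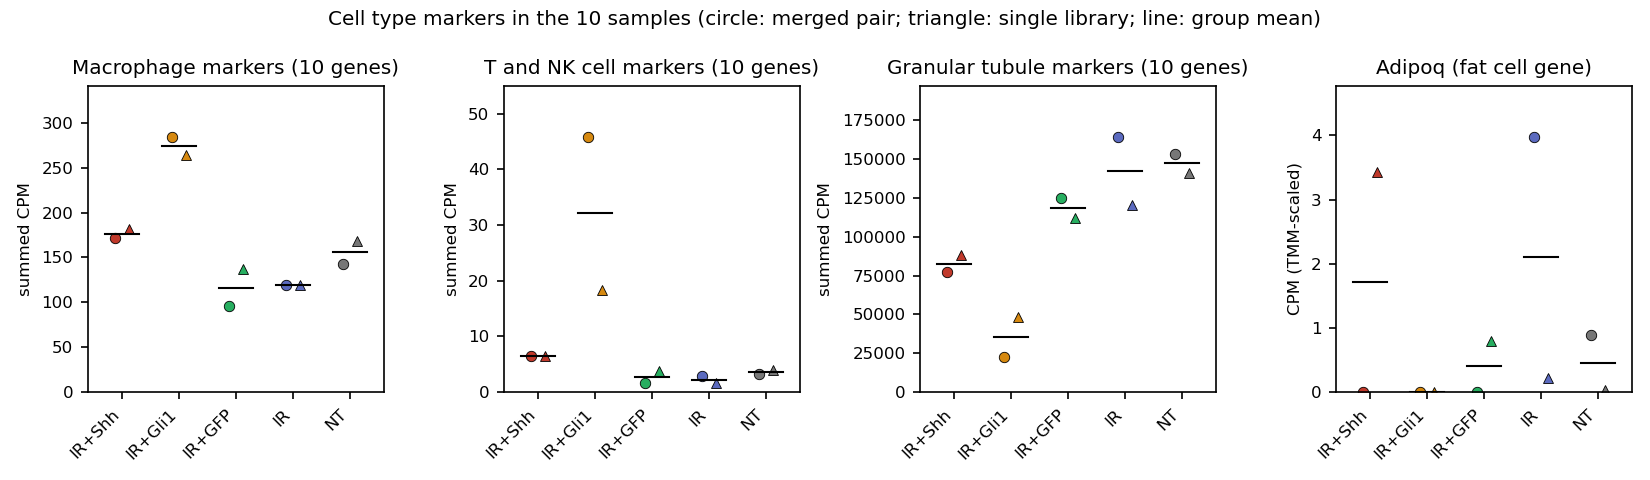
Summed CPM of 10 macrophage, 10 T and NK cell and 10 granular tubule markers, and CPM of Adipoq, in each of 10 samples by group (vertical axes from 0; circles are merged pairs, triangles single libraries, lines group means of n = 2). Macrophage markers are highest in IR+Gli1 at 284 and 265 CPM and next in IR+Shh, granular tubule markers are lowest in IR+Gli1, and Adipoq differs between the samples of IR+Shh and of IR.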

How the data were processed

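RNA-seq of 15 submandibular gland libraries was analysed. The values are raw read counts for Ensembl genes, as deposited. Per the submitters' processing notes the tools were DESeq2, HTSeq 0.10.0, TopHat2 2.0.13 and Bowtie 0.12.2, and the builds GRCm38 and mm10. The strand setting and annotation release are not given in the sources used here. Reads given to no gene (6.98% to 13.9% of reads in a table) stayed out of library sizes, and reads with several alignments were 8.22% and 7.53% in the single libraries of IR+GFP and IR+Gli1 and 2.89% to 4.79% in the other 13. Symbols and coordinates came from GENCODE vM21 (GRCm38), with a symbol for 96.2% of genes. Promoters came from RefSeq GRCm38.p6.

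Near-identical libraries, with a mean chi-square per gene under 0.5 over genes with 20 or more reads, were merged. The 10 samples were fitted together, 1 mean per group and no covariates, in edgeR 4.0.16 (R 4.3.3) with filterByExpr, TMM and robust quasi-likelihood tests (5 residual degrees of freedom, biological coefficient of variation 0.191, prior count 2). Tests were two-sided with Benjamini-Hochberg adjustment over the 14300 genes tested and a threshold of 0.05. The steps were checked on simulated data. Limits for 0 reads use 3 reads and cover counting error only, and samples per group (n = 2) limit precision more.

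The 10 genes and all lists were chosen with earlier results of these data known. Named genes were the 10, up to 4 passing genes of each of the 9 pathway lists by smallest p (otherwise the gene of smallest p), and the 8 genes of highest likeness. Marker lists numbered 14. Ptch1, Adipoq and Ucp1 were named beside the rule, and 1 gene is not reported here. Alternatives were other scalings and filters, DESeq2 1.42.0, limma-voom (limma 3.58.1), the compared groups alone, 15 separate libraries with and without the replicate block, the deeper library of each pair, and leaving out samples. The count of genes above all other samples under other scalings and without the single IR+Shh library was added after seeing the data. No clear pairing of libraries by a replicate number shared between groups was seen, but the check could not exclude it.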

Additional observations from a re-analysis of the deposited data

How the results depend on the processing

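The count of genes called in IR against NT (97) was 1242 with no filter on low counts, 471 with DESeq2, 55 with limma-voom, 4154 with 15 separate libraries, 311 without the single libraries of IR+GFP and IR+Gli1, and 9 to 538 with each sample left out in turn. For IR+Shh against IR+GFP (0) it was 435 with no filter, 34 with DESeq2, 24 with the compared groups alone, 538 with 15 libraries and 2 without those single libraries. For IR+Shh against IR+Gli1 (1109) it was 8092 with total-count scaling, 2639 with no filter, 9 with the compared groups alone, 6065 with 15 libraries, 2392 without those single libraries and 0 to 2286 with each sample left out. Of the 10 genes, 0 changed in IR against NT, but 1 did with no filter, with DESeq2 and without those single libraries, 2 with 15 libraries, and 0 to 1 with each sample left out. The replicate block, in the fit of 15 libraries, gave 4048, 433 and 6092 genes in the same 3 comparisons and 2 of the 10 genes. Replicate numbers gave no clear pairing. Of 30 same-numbered pairs, 3 deviated together with r over 0.1 (-0.09 to 0.53). The best correlate had the same number for 7 of 15 libraries. With near-identical libraries in every group these values are not independent, so the check cannot exclude a pairing. Fits of 15 libraries treat near-identical libraries as independent.

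Log2 values changed sign as follows. Crispld1 in IR against NT was 0.0653 with 15 libraries, 0.0633 with the replicate block, 0.0176 with the deeper library of each pair, and -0.43 to 0.41 with each sample left out, which gave -0.36 to 0.10 for Heyl and -0.15 to 0.53 for D630003M21Rik. Tmem178b in IR+Shh against IR+GFP was 0.14 with total-count scaling, 0.0023 with the deeper library and -0.13 to 0.13 with each sample left out, and against NT -0.11 to 0.32. In IR+Shh against IR+Gli1, total-count scaling gave -0.20 for Pde4b, -0.42 for Lrch1, -0.46 for Crebrf and -0.59 for Adcy7. Adcy7 was -0.0080 with 15 libraries, -0.0089 with the replicate block and -0.10 to 0.22 with each sample left out. The cause was not tested.

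Over the 19 alternatives that keep pairs merged or leave samples out, counts of genes called in IR+Shh against IR+Gli1 reached 0 in every list and at most 8 Hedgehog, 13 Notch, 12 cAMP machinery, 9 cAMP-induced, 5 CREB family, 6 glucocorticoid, 8 thyroid, 8 microfibril and 5 related genes, each under total-count scaling. With few reads, differences in Dio2, D630003M21Rik, Heyl and Adamtsl2 are limited by depth.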
